A study of Mus musculus with 2 samples.

Results

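The cells described here are the dividing CD4 T cells of the inflamed mouse colon. They are the cells that the authors' deposited annotation labels cycling, which make up 1 cluster of their clustering, and there were 1188 of them among 18860 cells. The cells came from 12 Rag-/- mice, which lack mature T and B cells of their own, after adoptive transfer of CD4 T cells, a model of T cell colitis. In the WT group the mice were given naive CD4 T cells, also described as CD4+, CD45RBhigh and CD25-, and in the KO group BCL-6 deficient CD4+ T cells, for which no naive sort is named. BCL-6 represses transcription and is known for its part in follicular helper and memory T cells. T cells positive for TCRb and CD4 were sorted from each colon, marked with 1 hashtag antibody a mouse and pooled into 1 gene expression library. Mice are numbered by hashtag as deposited, KO mice 1 to 6 and WT mice 7 to 12. The age of the mice, the time after transfer, the donors of the T cells and the promoter or allele behind the BCL-6 deficiency are not given in the sources used here. The comparisons between genotypes were made between mice within 1 library. A difference in the sort or the donors of the transferred cells, if there was one, cannot be told apart from genotype in them.

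A dividing T cell copies its DNA in S phase, for which it makes replication enzymes and histones, and then builds a spindle and parts its chromosomes in G2 and M phase. In the gut, activated CD4 T cells divide while they take on helper programs, such as Th1 cells that make interferon gamma and Th17 cells that make interleukin 17, or a cytotoxic program of granzymes and chemokines. Clustering on all genes tends to gather dividing cells by their cell cycle genes, so that cells of different programs can share 1 cluster. The T cell receptor, which is rearranged once and passed on to daughter cells, allows dividing cells to be tied to other cells of the same clone.

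The deposited annotation gave a clonotype, a clone defined by its receptor sequences, for 1053 of the 1188 cycling cells. The clones with at least 10 cycling cells are shown by the nucleotides of the CDR3, the part of the receptor that is joined from V, D and J segments and contacts the antigen, since the results on clones rest on these sequences. The alpha chain is encoded on chromosome 14 and the beta chain on chromosome 6. Letters run 5′ to 3′ as deposited, and capitals mark the first and last codons, which bound the CDR3. Clones carry the number of the deposited clonotype.
Clones 3, 22 and 42 (KO mouse 6), beta: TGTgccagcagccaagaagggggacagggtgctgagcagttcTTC
Clone 3, alpha, also the second alpha of clone 42: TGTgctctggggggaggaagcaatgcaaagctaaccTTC
Clone 42, first alpha: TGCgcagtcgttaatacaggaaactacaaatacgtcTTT
Clones 5 and 11 (KO mouse 4), beta: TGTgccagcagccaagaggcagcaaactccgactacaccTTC
Clones 5 and 11, alpha: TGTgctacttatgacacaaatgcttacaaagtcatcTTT
Clone 11, second alpha: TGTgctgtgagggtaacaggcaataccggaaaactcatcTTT
Clone 4 (KO mouse 5), beta: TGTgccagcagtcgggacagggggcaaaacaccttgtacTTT
Clone 4, alpha: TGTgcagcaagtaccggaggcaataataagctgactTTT
Clone 2 (WT mouse 11), beta: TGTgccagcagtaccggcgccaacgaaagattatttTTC
Clone 2, alpha: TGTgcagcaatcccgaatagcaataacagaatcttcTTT
Clone 10 (WT mouse 9), beta: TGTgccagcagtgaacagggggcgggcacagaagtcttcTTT
Clone 10, alpha: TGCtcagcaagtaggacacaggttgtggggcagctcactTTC
Clone 1 (WT mouse 7), beta: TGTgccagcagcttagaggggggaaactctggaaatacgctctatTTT
Clone 1, alpha: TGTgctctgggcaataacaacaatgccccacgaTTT
Clones 3, 22 and 42 shared their beta chain letter for letter, and clone 22 has no alpha chain in the deposited annotation. Clones 5 and 11 shared both a beta and an alpha chain, and clone 11 carried a second alpha chain. A clone as deposited can therefore be a part of a larger one, and the results on clones are also given with clones joined by their beta chain where that changes a call.

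The 1053 cycling cells with a clonotype belonged to 717 clones. Clone 3 had 24 cycling cells among 140, clone 22 had 11 among 43 and clone 42 had 11 among 30, all in KO mouse 6. Their other cells were mostly recirculating (56, 17 and 9) and Th17 (43, 12 and 6). In KO mouse 4, clone 11 had 17 cycling cells among 67 and clone 5 had 13 among 98, with members in recirculating, unnamed 1, cytotoxic, unnamed 3 and Th17 cells. The names unnamed 1 and unnamed 3 stand for clusters 1 and 3, which the deposited annotation calls only CD4 T cells. Clone 4 of KO mouse 5 had 11 cycling cells among 121, of which 79 were unnamed 3.

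In WT mouse 11, clone 2 had 24 cycling cells among 139, and 86 of its cells were cytotoxic. Clone 10 of WT mouse 9 had 12 cycling cells among 72, of which 38 were recirculating. Clone 1 of WT mouse 7, the clone with the most cells of the deposit, had only 10 cycling cells among 235. Each of these 9 clones thus joined its cycling cells to cells of at least 4 other subsets.

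**Figure D1:**
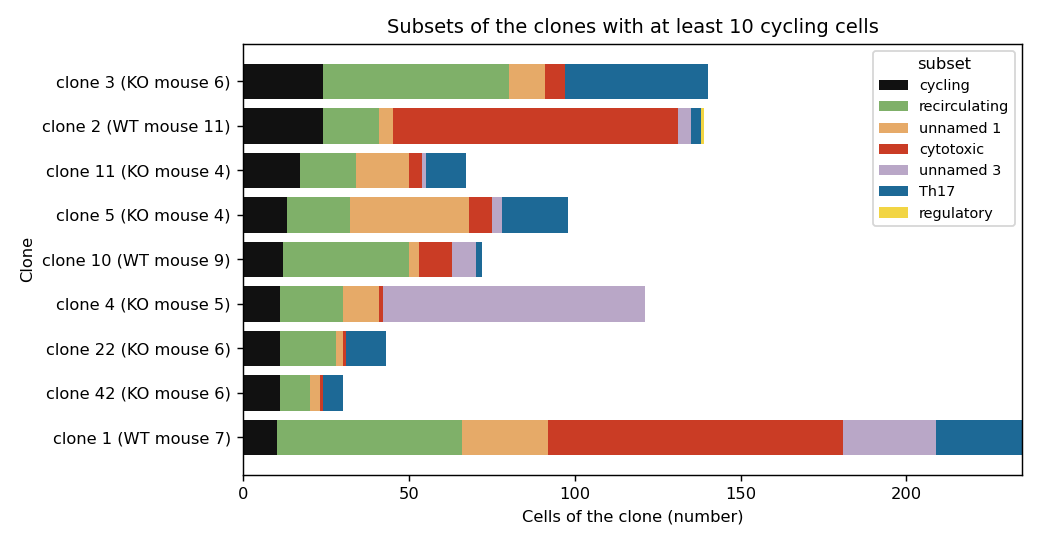
Number of cells in each of the 9 clones with at least 10 cycling cells (horizontal axis), split by the deposited cell subset (colours), with the mouse and genotype beside the clone. The black part at the left is the cycling cells, 10 to 24 in each clone, and the cytotoxic part is the longest in clones 1 and 2 of WT mice.

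Among the 39 clones with at least 30 cells, the cycling share ran from 0% to 36.7% with a median of 7.69%. In 9 of the 39 the 95% Wilson interval of the share lay above the share of cycling cells in the same mouse, and in 0 it lay below. Clones with 0 cycling cells among 32 to 41 had upper limits of 8.57% to 10.7%, against 4.59% to 5.71% in their mice. In clones of that size a share below that of the mouse thus could not be called. Clones 3, 22 and 42, which share a beta chain, are all among the 9. The highest share was that of clone 42, at 36.7% (interval 21.9 to 54.5) against 8.83% in KO mouse 6, and the share in clone 2 was 17.3% (11.9 to 24.4) against 8.98% in WT mouse 11. Clone 1 stood at 4.26% (2.33 to 7.65), next to 4.32% in its mouse. These intervals cover counting error only, and cells of a clone share their mouse.

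Cycling cells were 4.23% to 8.86% of the T cells of KO mice and 4.43% to 9.23% of those of WT mice, which amounts to 66 to 146 cells a mouse. They were the deepest cells of the library, with a median of 5132.5 UMIs (unique molecules counted) and 2019 genes, while the medians of the other subsets lay between 2164.5 and 3396 UMIs. Their median deposited doublet score was 0.0773, the same as in recirculating cells, and lay between 0.0418 and 0.0636 in the other subsets. KO cycling cells were shallower than WT ones. Their median averaged 4803 ± 220.4 UMIs over 6 KO mice, and that of WT cells 5581 ± 266 over 6 WT mice (SD; exact permutation test, p = 0.00216 and 0.00541 after adjustment over 5 measures), and the genotypes did not overlap. Genes per cell followed, at 1948 against 2081 (adjusted exact p = 0.00541). The median mitochondrial percent was 0.772 ± 0.0273 in KO and 0.842 ± 0.0280 in WT mice (SD; exact permutation test, p = 0.00433 and 0.00722 after adjustment). The summed level of 5 T cell markers was 2877 to 3941 CPM (UMIs per 1000000 UMIs of the cycling cells of a mouse) in every mouse. Of other cell types, 12 of 24 listed markers were in the table, and their sums per type were at most 44.3 CPM in any mouse, for gamma delta T cells, and 9.11 to 26.4 CPM for NK, epithelial, myeloid and B cells, with Csf1r of myeloid cells at 0. Of the 6367 clonotypes of the deposit, 20 occurred in 2 mice, with 22 cycling cells.

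The 4 genes that mark dividing cells were high in this subset, a description only, since the clustering used these genes. Mki67, which coats mitotic chromosomes, had a UMI in 57.0% of cycling cells and in 2.80% to 4.32% of the cells of other subsets. Top2a, which untangles DNA, had one in 54.1% against 4.12% to 6.34%. For Stmn1, which regulates microtubules, the share was 61.4% against 0.888% to 1.81%. Birc5, a member of the chromosomal passenger complex, was found in 38.1% against 0.210% to 0.781%. These shares are of cells thinned at random to 1500 UMIs each, so that deeper cells have no advantage, which left 1144 cycling cells. Mki67 or Top2a was seen in 70.9% of cycling cells and in 7.0% to 9.54% of the other subsets.

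Genes of S phase and of G2/M were both present. The summed level of 30 S phase genes was 4967 ± 342 CPM (SD over 12 mice), against 549.8 to 788 CPM in the other subsets. For 40 G2/M genes it was 11681 ± 1103 CPM against 1298 to 1825, and for 20 replication histones 5026 ± 626 CPM against 560.0 to 653. Esco2, which holds sister chromatids together, had the largest ratio to all other cells among genes with at least 100 CPM in cycling cells, at 100.3 CPM against 0.310 CPM, followed by Hmmr at 122 against 0.833 and Fbxo5 at 123 against 0.872. Genes that hold a cell back from division did not move one way. Cdkn1b, which encodes the inhibitor p27, stood at 172 CPM against 260.0 to 342 in the other subsets, and the antiproliferative gene Btg1 at 1077 against 1320.2 to 2631. Other inhibitors of the cell cycle were highest in cycling cells, Cdkn2d at 167 CPM against 42.6 to 76.9, Cdkn2a at 91.9 CPM against 7.34 to 53.0 and Cdkn2c at 73.2 CPM against 21.0 to 51.5, and Cdkn1a was second of the 7 subsets.

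Dividing cells carried Ifng, Il17a and granzyme genes in shares between those of the other subsets, and stem-like genes at low levels. All comparisons between subsets in this and the next paragraphs are descriptions with no test, because the clusters were made from the same genes. Ifng, the Th1 cytokine interferon gamma, had a UMI in 39.2% of cycling cells, close to the 37.7% of Th17 cells, below 44.7% of cytotoxic and 50.7% of unnamed 1 cells, and above 13.6% of regulatory cells. Tbx21, which encodes the Th1 factor T-bet, was found in 9.18% against 3.94% in Th17 and 15.3% in cytotoxic cells. As a sum over 16 Th1 genes, cycling cells had the lowest level of the 7 subsets, 5151 ± 938 CPM against 5869 to 9716. This was not particular to Th1 genes. The sum of 5 T cell markers was also lowest in cycling cells, at 3261 CPM against 3445 to 4251, as were those of inhibitory receptors and the interleukin 2 axis.

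Il17a, which encodes interleukin 17A, had a UMI in 5.07% of cycling cells, against 21.5% of Th17 cells and 0.170% of cytotoxic cells. How much of each share came from free RNA was not tested. The median depths of cycling, Th17 and cytotoxic cells before thinning were 5132.5, 3396 and 2430 UMIs. Il22 followed the same order, with 4.46%, 24.7% and 0.681%. Il17a and Ifng were found in the same cell in 2.36% of cycling cells, 8.34% of Th17 cells and 0.0852% of cytotoxic cells. Over 16 Th17 genes, cycling cells were second of the 7 subsets, at 2308 ± 694 CPM against 8073 in Th17 cells and 1493 to 2288 in the rest. Foxp3, the factor of regulatory T cells, had a UMI in 0.0874% of cycling cells, which is no more than the 0.0947% to 0.170% of other effector subsets and far from the 45.9% of regulatory cells.

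Of the cytotoxic genes, Gzmk, a granzyme, was found in 5.86% of cycling cells, second to 27.6% of cytotoxic cells, with 0.317% in Th17 cells. Gzma followed with 10.6% against 16.5% and 3.08%. Gzmb was common in all subsets, at 39.4% of cycling cells between 21.1% in unnamed 3 and 87.0% in regulatory cells. Ccl5, a chemokine of effector T cells, had a UMI in 40.7% of cycling and 93.3% of cytotoxic cells. The cytotoxic factor gene Eomes was rare, at 1.31% against 13.9%. The sum over 21 cytotoxic genes was 5115 ± 1143 CPM, compared with 20289 CPM for cytotoxic, 5135 for recirculating and 3232 for Th17 cells.

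Stem-like and memory genes were low. Il7r, the receptor for the survival cytokine interleukin 7, had a UMI in 37.2% of cycling cells and in 50% to 71.9% of the other subsets. Tcf7, which encodes the stem-like factor TCF-1, was found in 10.2%, against 20.7% in recirculating and 12.2% in Th17 cells, with only regulatory cells lower at 1.18%. Slamf6 was found in 2.45% against 7.97% in recirculating cells. Bcl2, a survival gene, and Bach2, a repressor of effector genes, were at 35.6 and 5.44 CPM, below the 42.8 and 12.5 CPM of the lowest other subset. Id3 stood at 17.7 CPM, next to 16.2 in cytotoxic cells. Over 17 stem-like genes the cycling cells had the lowest sum of the 7 subsets, 2299 ± 187 CPM against 2939.9 to 4476, as they had for Th1 genes and T cell markers. Bcl2, Bach2, Id3, Cdkn1a, Cdkn1b, Cdkn2a, Cdkn2c, Cdkn2d and Btg1 were chosen for these descriptions after their values were seen.

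**Figure D2:**
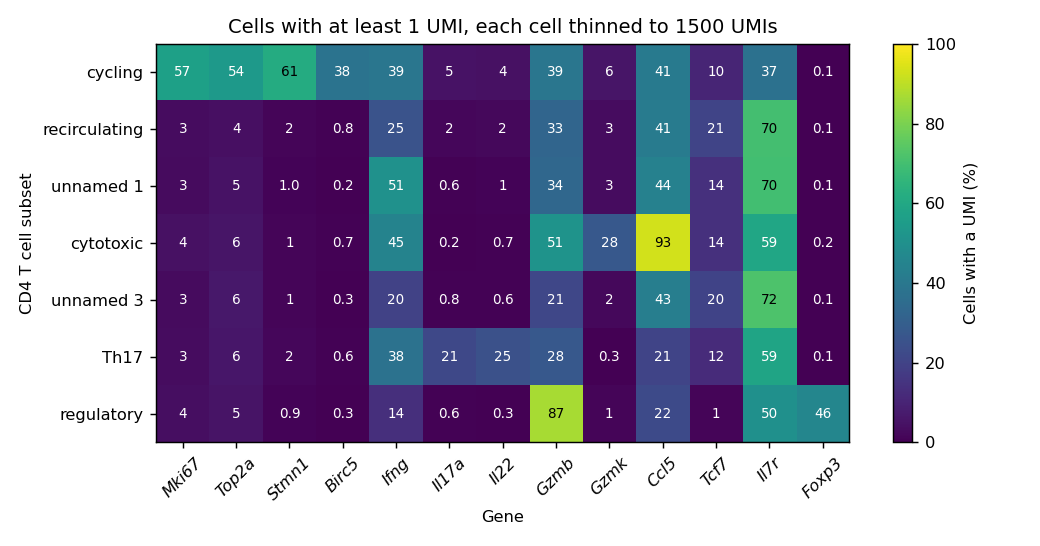
Share of cells with at least 1 UMI (percent, colour and number) for 13 genes (horizontal axis) in the 7 deposited subsets (vertical axis), with every cell thinned to 1500 UMIs. The top row, cycling cells, is alone in having 38.1% or more for the first 4 genes, and holds middle values for Ifng, Il17a, Gzmb and Gzmk and the lowest value for Il7r.

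Most cycling cells had relatives outside the cycling cluster. Such relatives are called non-cycling by their cluster only, and some may divide. Mki67 or Top2a was seen in 7.0% to 9.54% of the thinned cells of the other subsets. Of the 1053 cycling cells with a clonotype, 855 (81.2%) had a non-cycling cell of the same clone in the same mouse. Only 5 clones of at least 2 cells held cycling cells alone. Cycling cells lay more often in clones of 2 or more cells than the other cells of their mouse, 82.1% ± 5.48 against 74.4% ± 5.91 (SD, n = 12 mice), a difference of 7.72 points. It was positive in 12 of 12 mice (exact sign-flip permutation p = 0.000488, the smallest possible, adjusted p = 0.000488 over 4 measures). Their mean clone size was 22.7 ± 15 cells against 17.2 ± 13, again larger in 12 of 12 mice with the same p. With clones joined by beta chain, the shares in clones of 2 or more were 87.0% against 82.3%. That difference was smaller, 4.67 points, and positive in 12 of 12 mice (exact sign-flip p = 0.000488). The clone size was then larger in 9 of 12 mice (exact sign-flip p = 0.0283). Cycling cells were also the deepest cells, and the part of depth in these differences was not tested.

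The relatives of dividing cells were spread over the same subsets as the expanded cells of the mouse. Of the 524 clones with cycling and non-cycling cells, 324 reached recirculating, 252 unnamed 1, 235 cytotoxic, 200 unnamed 3, 183 Th17 and 13 regulatory cells, and 338 reached at least 2 of these. In each mouse, the share of a subset among the relatives of cycling cells was set against its share among all non-cycling cells in clones of at least 2 cells. Recirculating cells held 26.9% ± 8.12 against 23.7% ± 9.61 (SD, n = 12 mice, higher in 9 of 12, exact sign-flip p = 0.0327, adjusted p = 0.0654 over 6 subsets), cytotoxic cells 22.8% ± 15.3 against 23.8% ± 16.6 (adjusted exact p = 0.487), Th17 cells 16.1% ± 9.44 against 14.2% ± 9.50 (adjusted exact p = 0.254) and unnamed 3 cells 15.3% ± 13.6 against 14.9% ± 11.6 (adjusted exact p = 0.675). None of these 4 differences passed after adjustment, though that for recirculating cells did with clones joined by beta chain (3.05 points, adjusted exact p = 0.0244) and without WT mouse 8 (3.71 points, adjusted exact p = 0.0449).

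Relatives of cycling cells were fewer than the background in unnamed 1, at 18.5% ± 12.4 against 21.8% ± 15.3 (lower in 11 of 12 mice, adjusted exact sign-flip p = 0.0454), and in regulatory cells, at 0.348% ± 0.495 against 1.63% ± 2.0 (adjusted exact p = 0.0454). Neither held when each clone was counted once in place of each cell (differences of -1.50 and -1.13 points, adjusted exact p = 0.40 and 0.245). Each also lost its call without any 1 of KO mice 1 to 6 or WT mouse 9 or 10, and the regulatory one also without WT mouse 12, with differences of -3.47 to -2.46 points for unnamed 1 and of -1.38 to -0.715 points for regulatory cells.

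Between genotypes, the relatives and the background differed in the same direction. Cytotoxic cells were 9.08% ± 4.46 of the relatives in KO mice and 36.5% ± 6.69 in WT mice (SD over 6 mice; exact permutation test, p = 0.00216 and 0.00649 after adjustment), with backgrounds of 9.83% and 37.8%. Th17 relatives were 10.3% ± 7.63 against 21.9% ± 7.56 (adjusted exact p = 0.0455), with backgrounds of 7.35% and 21.1%. Unnamed 1 relatives were 29.0% ± 8.51 against 8.07% ± 1.66 (adjusted exact p = 0.00649), with backgrounds of 35.0% and 8.5%. The share of cycling cells in clones of 2 or more was 78.1% ± 5.15 in KO and 86.1% ± 1.31 in WT mice (adjusted exact p = 0.00866). It moved from a difference of -7.95 to -3.56 points with clones joined by beta chain and then did not pass (adjusted exact p = 0.208). The other cells were lower in KO mice too, and cycling minus other cells differed between the genotypes by 0.0316 points (exact permutation p = 0.989).

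**Figure D3:**
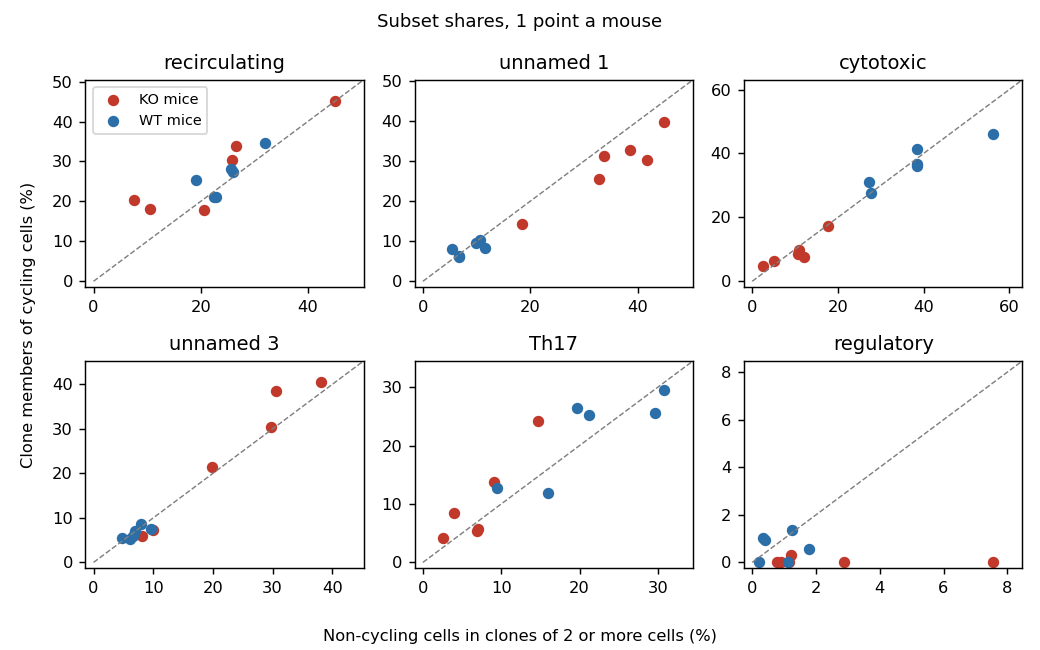
Share of each subset (1 panel each, percent) among the non-cycling clone members of cycling cells (vertical axis) against its share among all non-cycling cells in clones of at least 2 cells (horizontal axis), 1 point a mouse, KO red and WT blue, with a dashed line where they are equal. Points lie along the line in most panels, and the unnamed 1 points of KO mice lie below it in 6 of 6 mice.

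Dividing cells differed in expression by the subset of their clone. Cycling cells were sorted into classes by the subset to which most of their non-cycling relatives belonged, so that the class came from other cells and from receptor sequence. Of the cycling cells, 227 belonged to recirculating, 200 to cytotoxic, 119 to Th17, 118 to unnamed 1 and 96 to unnamed 3 clones, 0 to regulatory clones, and 95 were tied. Cytotoxic-clone and Th17-clone cycling cells were compared within the 8 mice that had at least 5 of each, KO mice 4 and 6 and all 6 WT mice. KO mice held 1 to 9 cytotoxic-clone cycling cells each and WT mice 18 to 51. Of 1590 genes tested, 49 passed (edgeR's quasi-likelihood test with mouse as a block, Benjamini-Hochberg adjusted p under 0.05), a background of 3.08%, with 17 higher (1.07%) and 32 lower (2.01%) in cytotoxic-clone cells. For 60 genes (3.77%) the difference had the same direction in all 8 mice.

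Of the cytotoxic list, 6 of 8 tested genes were higher in cytotoxic-clone dividing cells and 0 lower, with a median log2 fold change of 1.34 against 0.003 over all tested genes. Gzmk was at 308, 389.9, 263, 122, 226, 301, 112 and 266 CPM in the cytotoxic-clone cells of KO mice 4 and 6 and WT mice 7 to 12, and at 0, 17.8, 0, 0, 0, 25.2, 0 and 106 CPM in their Th17-clone cells. Every cytotoxic-clone value was above every Th17-clone value, and the log2 fold change was 3.28 ± 0.43 (SE, edgeR adjusted p = 0.000123). Nkg7, a cytotoxic granule protein, was higher in 8 of 8 mice, at 1986 ± 250.0 CPM in cytotoxic-clone cells and 675 ± 319 CPM in Th17-clone cells, with a log2 fold change of 1.68 ± 0.17 (SE, edgeR adjusted p = 2.24e-05). Ccl5 was higher in 7 of 8 mice, at 3718, 329.9, 2237, 5092, 3695, 3787, 4069 and 4633 CPM against 51.5, 623, 156, 409, 827, 1009, 103 and 168, and KO mouse 6 was the exception. Its log2 fold change was 3.05 ± 0.40 (SE, edgeR adjusted p = 0.000123).

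Gzma was higher in 6 of 8 mice, at 844 ± 637 CPM in cytotoxic-clone cells and 145 ± 157 CPM in Th17-clone cells, by 2.55 ± 0.49 (SE, edgeR adjusted p = 0.00532) on the log2 scale, and lost its call with clones joined by beta chain (1.96, edgeR adjusted p = 0.0816). Gzmb was higher in 8 of 8, by 1.00 ± 0.22 (SE, edgeR adjusted p = 0.0131), and was not called without WT mouse 8 or WT mouse 10 (0.85 and 1.02, edgeR adjusted p = 0.0615 and 0.0515) or with clones of at least 3 non-cycling cells (0.81, edgeR adjusted p = 0.0843). The other member that rose was Ctsw, which encodes cathepsin W, by 0.71 ± 0.17 (SE, edgeR adjusted p = 0.0254). Outside the list, Cd7 rose by 1.90 ± 0.21 (SE, edgeR adjusted p = 4.89e-05) and Cd160, a receptor of cytotoxic lymphocytes, by 1.73 ± 0.32 (SE, edgeR adjusted p = 0.00369). The lectin gene Lgals3 rose by 1.24 ± 0.25 (SE, edgeR adjusted p = 0.00766) and Dennd4a by 1.21 ± 0.22 (SE, edgeR adjusted p = 0.00296).

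Th17-clone dividing cells were marked by another set of genes. Tmem176b and Tmem176a, neighbouring genes of membrane proteins that Th17 cells carry at high level, had log2 fold changes of -2.75 ± 0.34 (SE, edgeR adjusted p = 0.000105) and -2.71 ± 0.32 (SE, edgeR adjusted p = 7.81e-05) in cytotoxic-clone against Th17-clone cells. Tmem176b was at 57.8, 0, 67.4, 35.8, 32.3, 64.6, 289.6 and 47.5 CPM in cytotoxic-clone cells and at 412, 249, 422, 534, 506, 799, 361 and 566 CPM in Th17-clone cells, higher in the latter in 8 of 8 mice. WT mouse 11 had the highest value among the cytotoxic-clone cells, and without it Tmem176b stood at -3.45 and Tmem176a at -3.34. The 2 genes overlap at their ends on opposite strands, and the sources used here do not name the counting strand. Their UMIs may therefore not be separable. Icos, a costimulatory receptor, was at 373 ± 111 CPM in cytotoxic-clone cells and 899 ± 130.2 CPM in Th17-clone cells and lower in cytotoxic-clone cells in 8 of 8 mice (log2 fold change -1.35 ± 0.17 SE, edgeR adjusted p = 0.000114). The costimulatory receptor gene Tnfrsf4, which encodes OX40, was lower in 7 of 8 (log2 fold change -1.31 ± 0.20 SE, edgeR adjusted p = 0.000478), and the chromatin organiser gene Satb1 in 8 of 8 (log2 fold change -1.42 ± 0.28 SE, edgeR adjusted p = 0.00697). Ermn, the antiviral gene Ifitm3 and the metabolic gene Got1 had log2 fold changes of -1.65, -1.62 and -1.42, and Got1 was not called with clones joined by beta chain (edgeR adjusted p = 0.125).

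No gene of the S phase, G2/M and histone lists was called between the clone classes at this depth. Of 18 S phase, 25 G2/M and 12 histone genes tested, 0 were called, against 3.08% of all 1590 tested genes. At that share few calls would be made in lists of this size, so the count says little about them. The median log2 fold changes were 0.29, 0.05 and 0.00, against 0.003 over all tested genes. The S phase median thus leaned towards cytotoxic-clone cells, and this was not tested. Mki67 was at 887 ± 401 CPM in cytotoxic-clone cells and 876 ± 388 CPM in Th17-clone cells (log2 fold change 0.05 ± 0.24 SE, edgeR adjusted p = 0.952). Of the Th17 list, 2 of 6 tested genes passed, both the Tmem176 genes, and of the Th1 list 2 of 10, Bhlhe40 and Cxcr6, both lower in cytotoxic-clone cells. Il17a itself was not among the tested genes. It had 253 UMIs in 119 Th17-clone cells, 307 in 227 recirculating-clone cells and 2 in 200 cytotoxic-clone cells. Of the stem-like list, Satb1 was the only gene of 6 that passed, and Il7r was at 337 ± 131 CPM in cytotoxic-clone cells and 348 ± 99.3 CPM in Th17-clone cells (log2 fold change -0.05 ± 0.21 SE, edgeR adjusted p = 0.946). Ifng was at 618 ± 316 CPM in cytotoxic-clone cells and 475 ± 178 CPM in Th17-clone cells (log2 fold change 0.26 ± 0.19 SE, edgeR adjusted p = 0.539). Leaving out WT mouse 10 reduced the 49 genes to 29, of which 28 were among the 49.

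**Figure D4:**
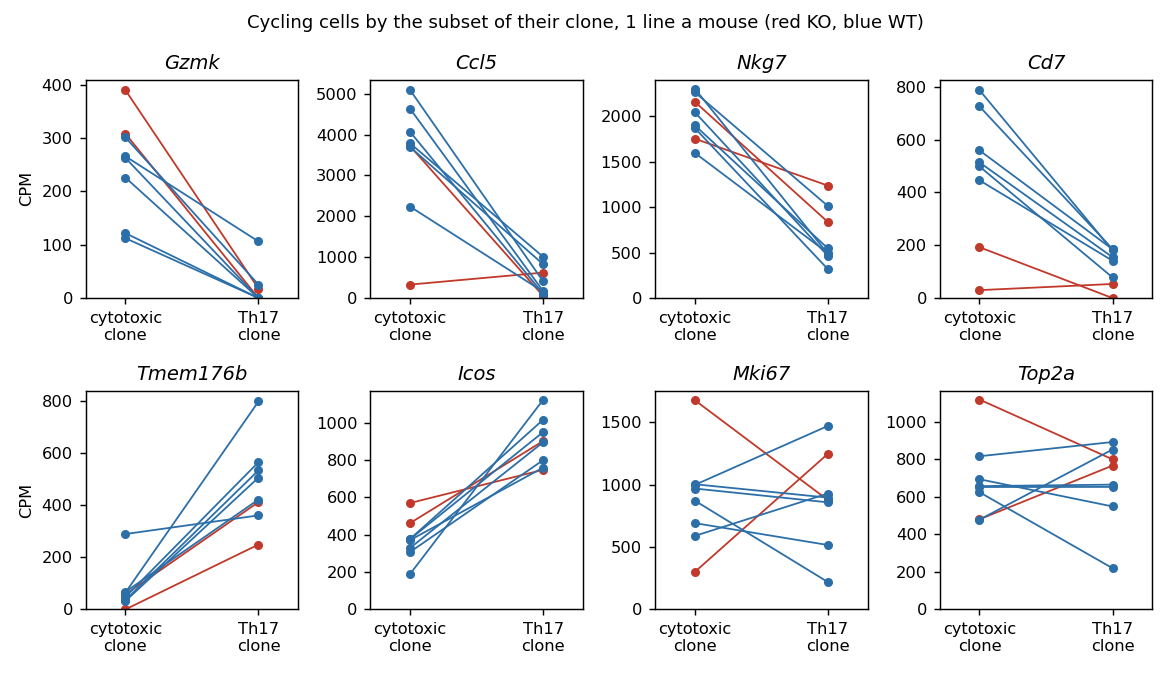
Level (CPM, from 0) of 8 genes in cycling cells of cytotoxic clones (left) and Th17 clones (right) of the same mouse, 1 line for each of 8 mice, KO red and WT blue. Lines for Gzmk and Nkg7 fall and those for Tmem176b and Icos rise in 8 of 8 mice, those for Ccl5 and Cd7 fall in 7 of 8, and those for Mki67 and Top2a cross.

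Neither the share nor the phase of dividing cells differed between the genotypes beyond the spread between mice. Cycling cells were 6.41% ± 1.80 of KO and 6.28% ± 1.84 of WT cells (SD, n = 6 mice each, exact permutation p = 0.885). G2/M genes gave 69.9% ± 3.54 of the S and G2/M UMIs of cycling cells in KO mice and 70.2% ± 2.40 in WT mice (exact permutation p = 0.892). A p above the threshold does not show that the groups are equal, and 6 mice a group spanned 4.23% to 9.23% of cycling cells.

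Bcl6, the gene named in the genotype (chromosome 16, 23965052 to 23988852, minus strand, GRCm38), was higher in the cycling cells of KO mice. KO mice 1 to 6 had 79.3, 43.2, 125, 80.7, 103 and 97.8 CPM, and WT mice 7 to 12 had 23.5, 30.8, 31.4, 38.7, 24.7 and 35.0 CPM. The genotypes did not overlap, and the log2 fold change was 1.46 ± 0.21 (SE, edgeR adjusted p = 6.53e-05). UMIs of a 5′ library count transcripts whose deleted exons may lie elsewhere, and the design of the Bcl6 deletion is not stated here. Bcl6 levels therefore cannot check the label of a mouse, and KO and WT are used as the annotation gives them. After thinning, Bcl6 had a UMI in 9.63% ± 3.23 of cells in KO mice and 4.18% ± 0.945 in WT mice (SD over 6 mice; exact permutation test, p = 0.00216 and 0.0114 after adjustment). In the non-cycling cells the log2 fold change was 0.40 (edgeR adjusted p = 0.00881), and the difference between the 2 effects was 0.92 (limma adjusted p = 0.170), which did not pass.

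Within cycling cells, 288 of 5376 tested genes differed between KO and WT mice (5.36%), 131 higher (2.44%) and 157 lower (2.92%) in KO (edgeR's quasi-likelihood test on UMIs summed per mouse, Benjamini-Hochberg adjusted p under 0.05). For 176 genes (3.27%) the CPM values of the genotypes did not overlap, with 94 higher (1.75%) and 82 lower (1.53%) in KO mice. The differences named above in depth, in genes per cell and in mitochondrial percent stood beside every one of these results, and beyond the thinned cells their part in them was not tested. With each cell thinned to 1500 UMIs, 154 of 2221 tested genes passed, 133 of them among the 288 in the same direction. Without the cells of cytotoxic clones, 222 passed, and 190 of the 288 were still called.

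Of the Th1 list, 4 of 15 tested genes were higher in KO dividing cells, with 0 lower and a median log2 fold change of 0.08 over the list against -0.004 over all genes. Il12rb2, a chain of the receptor for interleukin 12, which drives Th1 cells, was at 281, 234, 193, 215, 262 and 199.8 CPM in KO mice and at 91.2, 99.1, 152, 116, 115 and 84.1 CPM in WT mice. Every KO value was above every WT value, with a log2 fold change of 0.99 ± 0.13 (SE, edgeR adjusted p = 3.02e-05). Il12rb1, the other chain, rose by 0.75 ± 0.16 (SE, edgeR adjusted p = 0.00518), from 40.7 ± 8.85 to 70.2 ± 9.49 CPM (SD, n = 6 mice each). It was not called in cells with doublet scores below the median (0.76, edgeR adjusted p = 0.0843). Bhlhe40, a factor that promotes cytokines, rose by 0.29 ± 0.05 (SE, edgeR adjusted p = 0.00123).

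Csf2, which encodes the inflammatory cytokine GM-CSF, was at 140.4, 50.1, 428, 101, 166 and 136 CPM in KO and at 15.6, 22.0, 51.8, 29.6, 52.4 and 28 CPM in WT mice. KO mouse 3 was the highest, and the lowest KO mouse, mouse 2, overlapped the WT range. The log2 fold change was 2.11 ± 0.38 (SE, edgeR adjusted p = 0.000837), and 1.33 (edgeR adjusted p = 0.0289) in the cycling cells with doublet scores below the median. With equal numbers of cells it was 2.73 (edgeR adjusted p = 0.000167). Ifng was at 954, 483, 669, 827, 2117 and 673 CPM in KO and at 441, 619, 552, 588, 662 and 523 CPM in WT mice. KO mouse 5 stood far above the rest, the genotypes overlapped, and the log2 fold change of 0.69 ± 0.23 (SE, edgeR adjusted p = 0.0854) did not pass. It passed without KO mouse 2 (0.83, edgeR adjusted p = 0.0192), without KO mouse 6 (0.78, edgeR adjusted p = 0.0387), without KO mice 1 and 2 (0.86, edgeR adjusted p = 0.0302), with doublet scores below the median (1.03, edgeR adjusted p = 0.034) and with no filter on low counts (0.70, edgeR adjusted p = 0.0214). Without KO mouse 5 it was lowest (0.31, edgeR adjusted p = 0.237). As a share of cells with a UMI, Ifng differed by 1.49 points at 1500 UMIs (adjusted exact p = 0.808), by 6.65 at 1000 UMIs (adjusted exact p = 0.0455) and by 0.0328 without thinning (adjusted exact p = 1.000). Tbx21 did not pass (log2 fold change -0.29 ± 0.19 SE, edgeR adjusted p = 0.505).

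Among the largest rises was Tnfsf11, which encodes the cytokine RANKL. It was at 446, 323, 338, 251, 382 and 236 CPM in KO and at 156, 90.3, 59.6, 88.8, 119 and 112 CPM in WT mice, without overlap, and its log2 fold change was 1.61 ± 0.18 (SE, edgeR adjusted p = 4.35e-06). Crip2 rose by 1.80 ± 0.25 (SE, edgeR adjusted p = 4.06e-05), from 7.84 to 22.0 CPM in WT to 35.3 to 77.3 CPM in KO mice. Plac8 was at 342, 473, 495, 409, 529 and 449.8 CPM in KO and at 136, 220.2, 171, 121, 214 and 152 CPM in WT mice, a log2 fold change of 1.33 ± 0.13 (SE, edgeR adjusted p = 8.16e-07). Chd7, a chromatin remodeller, Dusp10, a phosphatase that curbs stress kinases, Neurl3 and Bcl2l1, which encodes the survival protein BCL-XL, rose by 1.27, 1.20, 1.19 and 1.17, with edgeR adjusted p of 4.35e-06, 0.00195, 0.000183 and 0.000472. These 7 genes were named by a rule that takes only genes without overlap between the genotypes, so their lack of overlap is no finding.

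Of the cytotoxic list, 4 of 13 tested genes were lower in KO dividing cells, with 1 higher and a list median of -0.22. Ccl5 was at 399, 674, 810.0, 973, 929.8 and 670.0 CPM in KO and at 1238, 2378, 1701, 1968, 2172 and 1672 CPM in WT mice, without overlap, and fell with a log2 fold change of -1.38 ± 0.16 (SE, edgeR adjusted p = 4.35e-06). Gzmk was at 8.14, 25.0, 83.6, 45.4, 18.7 and 34.0 CPM in KO and at 115, 106, 100.4, 103, 74.2 and 114 CPM in WT mice, and only KO mouse 3 reached the WT range, above WT mouse 11. Its log2 fold change was -1.61 ± 0.26 (SE, edgeR adjusted p = 0.00029). Gzma was at 108, 107, 145, 75.7, 133 and 169 CPM in KO and at 211, 687, 1128, 724, 115 and 509 CPM in WT mice, where WT mouse 11 lay within the KO range (log2 fold change -2.25 ± 0.37 SE, edgeR adjusted p = 0.0003). The fourth was the chemokine gene Ccl4 (log2 fold change -1.99 ± 0.57 SE, edgeR adjusted p = 0.0423), which the naming rule did not take. Serpinb9, which encodes an inhibitor of granzyme B, rose by 0.71 ± 0.14 (SE, edgeR adjusted p = 0.00258), and was not called in thinned cells (0.66, edgeR adjusted p = 0.0515) or in cells with doublet scores below the median (0.62, edgeR adjusted p = 0.146). Gzmb stood at 836 ± 166 against 768 ± 337 CPM and did not pass (log2 fold change 0.07 ± 0.20 SE, edgeR adjusted p = 0.922).

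Cells of cytotoxic clones numbered 1 to 9 among the cycling cells of each KO mouse and 18 to 51 of each WT mouse. In these summed samples, fewer such cells and less RNA in each cannot be told apart. With them left out, the log2 fold change of Ccl5 was -0.62 (edgeR adjusted p = 0.0429), of Gzmk -1.54 (edgeR adjusted p = 0.00523) and of Gzma -2.40 (edgeR adjusted p = 0.000192). Cells with no clonotype or with tied clones remained, so cytotoxic cells may be among them. In thinned cells, Gzmk had a UMI in 3.26% ± 1.66 of cells in KO mice and 9.04% ± 2.89 in WT mice (SD over 6 mice; exact permutation test, p = 0.00433 and 0.0182 after adjustment). Ccl5 had one in 32.7% ± 5.6 of cells in KO mice and 48.5% ± 7.38 in WT mice (SD over 6 mice; exact permutation test, p = 0.00649 and 0.0227 after adjustment), and Gzma in 6.07% ± 1.50 of cells in KO mice and 14.9% ± 6.96 in WT mice (SD over 6 mice; exact permutation test, p = 0.00216 and 0.0114 after adjustment). Without thinning the share for Gzma did not pass (adjusted exact p = 0.0584). Eomes had no UMI in 601 thinned KO cells, pooled over mice, and 2 of 619 KO cells had one without thinning. A count of 0 in 601 allows up to 0.499% of cells with a UMI at the thinned depth, counting error only. In WT mice it was found in 18 of 543 thinned cells and 28 of 569 without thinning, in thinned cells 2.94% ± 2.03 over 6 mice (exact permutation p = 0.00216, adjusted p = 0.0114 over 21 genes).

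Cd7, a surface receptor of T and NK cells, was at 50.9, 72.8, 41.8, 77.3, 74.9 and 119.6 CPM in KO and at 287, 421, 442, 259.7, 321 and 271 CPM in WT mice (log2 fold change -2.18 ± 0.18 SE, edgeR adjusted p = 1.14e-07). Cd7, Trat1, Esm1, Hspa1a, Hspa1b and Dynlt1b were named by the rule that takes only genes without overlap. Their lack of overlap is therefore no finding. Trat1, an adaptor of the T cell receptor, fell with -1.62 ± 0.15 (SE, edgeR adjusted p = 7.78e-07) and Cd160, the only inhibitory receptor gene of 3 tested that passed, with -1.54 ± 0.24 (SE, edgeR adjusted p = 0.000196). Esm1 fell with -2.46 ± 0.32 (SE, edgeR adjusted p = 2.87e-05), but it lies within the span of Gzmk on the opposite strand (chromosome 13, 113209659 to 113218098, plus strand, against chromosome 13, 113171608 to 113225908, minus strand, GRCm38), and without knowledge of the counting strand their UMIs may not be separable. Hspa1a and Hspa1b, near-identical copies of a heat shock gene, fell with -1.08 and -1.06, and Dynlt1b, a dynein light chain gene with close copies, with -1.01. How the counting split such copies is uncertain. Hspa1a lost its call without the cytotoxic-clone cells (-0.83, edgeR adjusted p = 0.0747).

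Of the stem-like list, Klf2, which keeps T cells in circulation, was the only one of 12 genes that passed. It was at 254, 228, 164, 345, 260.0 and 148 CPM in KO and at 344, 363, 505, 499, 412 and 458 CPM in WT mice, and only KO mouse 4 met the WT range (log2 fold change -0.93 ± 0.15 SE, edgeR adjusted p = 0.00029). Tcf7 was at 80.1 ± 22.5 against 51.5 ± 17.5 CPM (log2 fold change 0.57 ± 0.21 SE, edgeR adjusted p = 0.134) and passed in 1 alternative, the cells with doublet scores below the median (0.92, edgeR adjusted p = 0.0197). Il7r was at 411 ± 10.6 against 350.1 ± 44.2 CPM and Slamf6 at 19.8 ± 7.26 against 24.1 ± 6.51, and neither passed (edgeR adjusted p = 0.289 and 0.549).

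Of the follicular helper list, 2 of 6 tested genes were higher and 1 lower. Beside Bcl6, Maf rose by 0.68 ± 0.14 (SE, edgeR adjusted p = 0.00364), and Sh2d1a, which encodes the adaptor SAP, fell with -0.62 ± 0.15 (SE, edgeR adjusted p = 0.0138). Maf was not called in thinned cells (0.57, edgeR adjusted p = 0.215), nor was Sh2d1a (-0.63, edgeR adjusted p = 0.140), and neither was called in some further alternatives. Of the Th17 list, 0 of 9 were higher and 2 lower, Batf, a factor for Th17 differentiation (log2 fold change -0.56 ± 0.11 SE, edgeR adjusted p = 0.00169), and Tmem176a (log2 fold change -0.81 ± 0.21 SE, edgeR adjusted p = 0.0239). Tmem176a lost its call in thinned cells, with DESeq2 and without KO mouse 2 or 3 or WT mouse 8, 10 or 12. Il17a was at 175, 9.10, 38.6, 256, 51.5 and 338 CPM in KO and at 242, 214, 34.5, 97.9, 23.3 and 325 CPM in WT mice, an overlap over nearly the whole range (log2 fold change 0.06 ± 0.53 SE, edgeR adjusted p = 0.974). Il22 varied as widely, from 6.83 to 806 CPM in KO and from 49.5 to 1443 CPM in WT mice (log2 fold change -0.65 ± 0.67 SE, edgeR adjusted p = 0.720).

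Of the cell cycle lists, 0 genes were called of 30 S phase, 39 G2/M and 19 histone genes, against 5.36% of all 5376 tested genes. Their median log2 fold changes were -0.03, -0.02 and 0.01. Of 23 genes of cell cycle entry and arrest, Btg1 passed (log2 fold change 0.20 ± 0.06 SE, edgeR adjusted p = 0.0331). Of the 4 markers, Stmn1 passed (log2 fold change 0.29 ± 0.08 SE, edgeR adjusted p = 0.0398), while Mki67, Top2a and Birc5 did not (edgeR adjusted p = 0.873, 0.291 and 0.551). Neither was called in thinned cells (edgeR adjusted p = 0.341 and 0.153), with equal numbers of cells, without cells of cytotoxic clones or without KO mice 1 and 2, and Btg1 also not without the filter on low counts. Leaving out KO mouse 1, 2, 4 or 5 or WT mouse 7, 8, 9 or 11 ended the call of both, and WT mouse 10 that of Stmn1. Isg15, an interferon-stimulated gene, was the only one of 7 called (log2 fold change 0.77 ± 0.16 SE, edgeR adjusted p = 0.00317), and not in thinned cells (edgeR adjusted p = 0.0663). Itgae, which encodes the tissue residence integrin CD103, was the only one of 10 residence genes called (log2 fold change -0.70 ± 0.19 SE, edgeR adjusted p = 0.033), and lost its call without KO mouse 1, 4 or 5 or WT mouse 8, 9 or 12 and with doublet scores below the median (-0.39, edgeR adjusted p = 0.437). Of 4 Th2, 5 regulatory and 11 interleukin 2 axis genes, 0 were called, lists too short to be told from the 5.36% over all genes.

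The sorted coreceptor itself differed. Cd4 was at 413, 462, 482, 456, 449.7 and 485 CPM in KO and at 235, 240.0, 271, 264, 234 and 319.9 CPM in WT mice, every KO value above every WT value (log2 fold change 0.76 ± 0.08 SE, edgeR adjusted p = 4.35e-06). In thinned cells it had a UMI in 51.5% ± 3.92 of cells in KO mice and 31.7% ± 4.03 in WT mice (SD over 6 mice; exact permutation test, p = 0.00216 and 0.0114 after adjustment). Cd8a encodes a chain of the coreceptor CD8, for or against which the sort as described did not select. It was found in 0.518% ± 0.915 of cells in KO mice and 3.21% ± 1.84 in WT mice (SD over 6 mice, exact permutation test, p = 0.00866 and 0.026 after adjustment). Over all mice that was 1.92% of cycling cells, against 8.97% of cytotoxic and 0.0453% of Th17 cells. Without cytotoxic-clone cells the log2 fold change of Cd4 was 0.69 (edgeR adjusted p = 2.76e-05).

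**Figure D5:**
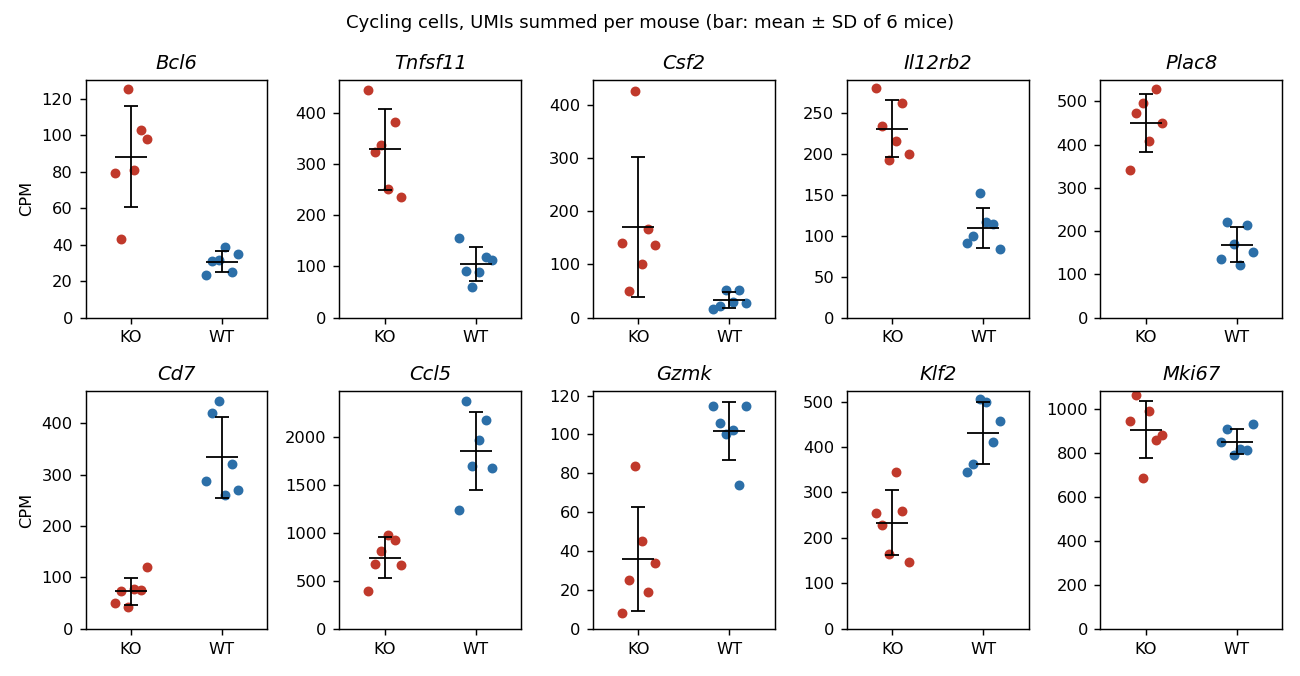
Level (CPM, from 0) of 10 genes in cycling cells, UMIs summed per mouse, 1 point a mouse, KO red and WT blue, with the mean and SD of 6 mice in black. KO and WT points are apart for Bcl6, Tnfsf11, Il12rb2, Plac8, Cd7 and Ccl5, overlap slightly for Csf2, Gzmk and Klf2, and overlap for Mki67. Tnfsf11, Plac8 and Cd7 were named by a rule that takes only genes without overlap.

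The genotype difference in dividing cells was compared with that in the other cells of the same mice. Of the 288 genes, 227 were also called in the same direction in non-cycling cells, 0 in the opposite one, and 61 were not called there. In those cells 1440 of 9619 tested genes were called (15%), and 830 of 9612 (8.64%) with the subsets set to the same shares in every mouse, since the subsets differ in number between the genotypes. A test of the difference of the 2 effects, made with limma on the within-mouse difference between cycling and other cells, called 0 of 5376 genes (0.0%). At an unadjusted p under 0.05 there were 423. The smallest p values belonged to Ifitm3 (-0.79), the chromatin remodeller gene Hells (0.80), Bcl6 (0.92), Clcn4 (-0.47) and Nrgn (1.80), with limma adjusted p of 0.170 for the first 4 and 0.331 for Nrgn. No gene was thus shown to differ between KO and WT by another amount in dividing cells than in the rest. The effects in Tnfsf11, Cd7 and Ccl5 stood at 1.61, -2.18 and -1.38 in cycling cells and at 1.09, -2.25 and -1.68 in the others. Those in Csf2, Il17a, Il22 and Mki67 lay further apart, at 2.11, 0.06, -0.65 and 0.04 against 0.89, -1.09, -1.73 and -0.49. None of these 4 differences passed (limma adjusted p of 0.385 to 0.865). In the other cells Il17a, Il22 and Mki67 were called lower in KO mice (edgeR adjusted p = 0.0403, 0.00796 and 0.0134), without setting the subsets to the same shares.

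Of the 288 genes that differed by genotype and the 49 that differed by clone class, 12 were in both, 4.17% of the first and 24.5% of the second. The first share stands beside the 3.08% of tested genes called by clone class, and the second beside the 5.36% called by genotype. Only 1590 genes were tested by clone class against 5376 by genotype, so these backgrounds are of different gene sets. Ccl5, Gzmk, Gzma, Cd7 and Cd160 were lower in KO mice and higher in cytotoxic-clone cells. Tmem176a was lower in KO mice and higher in Th17-clone cells, and Bhlhe40 was higher in KO mice and in Th17-clone cells. The subset of the clone was a comparison mostly within WT mice, so neither count bears on KO cells of cytotoxic clones by themselves.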

How the data were processed

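The authors sequenced sorted colonic T cells of 12 mice as 1 pooled library of 10x Genomics 5′ gene expression with hashtags and T cell receptors. They deposited raw UMI counts per gene and cell, and an annotation with the mouse, genotype, subset, clonotype, mitochondrial percent and doublet score of each cell. Cell Ranger 3.1.0, Seurat 3.1.5 and GRCm38 (mm10) are named in the submitters' processing notes, and the cell filter, the doublet caller and the counting strand are not given in the sources used here. No cell was removed here and no doublet caller was run.

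UMIs of cycling cells were summed per mouse (311103 to 735844 UMIs) and tested with edgeR 4.0.16 (quasi-likelihood, TMM scaling, filterByExpr, Benjamini-Hochberg) in R 4.3.3, per mouse and clone class with mouse as a block, and the difference of effects with limma 3.58.1. Single values per mouse were tested by two-sided exact permutation (924 assignments, smallest p 0.00216) or sign flips (4096). Before shares with a UMI were compared, cells were thinned at random to 1500 UMIs, and 1144 of 1188 cycling cells were kept (alternatives were 1000 UMIs and no thinning). Other alternatives were DESeq2 1.42.0, other filters, cell numbers and clone definitions, and leaving out each mouse. Python used numpy 2.4.6, scipy 1.17.1 and pandas 2.3.3. CPM values are UMIs per 1000000 UMIs of the summed cells, and SD is over mice.

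Named genes were a panel of 21 and, among genes with adjusted p under 0.05, the 8 largest rises and 8 largest falls whose mean log2 CPM reached 5 (for genotype, also without overlap), up to 4 members of each list by smallest p, and the 5 smallest p for the difference of effects. Receptor segments and unnamed gene models were passed over. 1 gene of the panel is not reported here. The members and lists were chosen with earlier results of these data known. Tests were run on simulated data with known changes first. For KO against WT, 72% of genes changed by 1 on the log2 scale and 87% of those changed by 2 were recovered among 5334. For the clone classes 73% and 81% were recovered among 1584, and for the difference of effects 39% and 89% among 5397. Gene positions are from GENCODE on GRCm38.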

Additional observations from a re-analysis of the deposited data

Results flagged for a closer look

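Of 112 groups of mice looked at, 9 held 1 mouse far from the others, and chance alone gives about 1 in 20. Csf2 stood at 428 CPM in the cycling cells of KO mouse 3, against 50.1 to 166 in the other KO mice, and Ifng at 2117 CPM in KO mouse 5, against 483 to 954. KO mouse 5 also had 145 CPM of Trat1 against 65.6 to 91.0. In KO mouse 6 Gzmb was at 1158 CPM against 715 to 865, and in KO mouse 1 Chd7 was at 195 CPM against 121 to 148. Maf was low in KO mouse 4, at 77.3 CPM against 122 to 148. In WT mouse 11 Gzmk was low, at 74.2 CPM against 100.4 to 115, and Hspa1a high, at 2502 CPM against 1452 to 1748. Regulatory cells were 0.327% of the clone members of cycling cells in KO mouse 6 and 0% in the other KO mice.

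The shortfall of unnamed 1 cells among the relatives of dividing cells differed between the genotypes. The share minus the background was -6.00 points in KO mice and -0.426 in WT mice, a difference of -5.58 points (exact permutation test of the difference, adjusted p = 0.0260 over 6 subsets). It was below 0 in 6 of 6 KO and 5 of 6 WT mice. The difference did not pass when each clone was counted once, with clones of at least 3 non-cycling cells, with clones joined by beta chain, or without any 1 of WT mice 7 and 9 to 12.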

How the results depend on the processing

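No paired analysis was possible because the mice of the 2 genotypes share no replicate number. The 288 genes that differed between KO and WT became 154 in cells thinned to 1500 UMIs, 177 in the cells with doublet scores below the median and 176 without KO mice 1 and 2 together (the last 2 and the joining of clones by beta chain were chosen after seeing the data). Without each mouse in turn there were 213 to 358. The 49 genes of the clone classes became 129 with no filter on low counts, where 11323 genes were tested, and 29 to 64 without each mouse. For the difference of effects, 0 genes passed in every setting. Of 950 gene values under other settings for KO against WT, 874 kept direction and call, 53 lost and 6 gained a call and 17 reversed. Of 325 for the clone classes, 310 kept both, 5 lost the call and 10 reversed.

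Cells with an Mki67 or Top2a UMI, in place of the cluster, were 0.950 points fewer in KO mice (a difference of -0.950, exact p = 0.294), and without each mouse the difference in the cycling share was -0.356 to 0.724. For the share of relatives minus background, values without each mouse were 2.37 to 3.80 for recirculating, -3.73 to -2.46 for unnamed 1, -1.44 to -0.179 for cytotoxic, -0.220 to 0.727 for unnamed 3, 1.13 to 2.36 for Th17 and -1.46 to -0.715 for regulatory cells. With clones joined by beta chain, recirculating cells stood at 3.05. With each clone counted once, unnamed 1 stood at -1.50, and regulatory cells at -1.13 (-1.25 with at least 3 non-cycling cells). Cytotoxic cells turned to 0.704 against all non-cycling cells and to 0.254 with at least 3 non-cycling cells, and unnamed 3 to -0.252 against all non-cycling cells.

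The KO minus WT differences in these values without each mouse were 1.81 to 4.96 for recirculating, -6.30 to -4.47 for unnamed 1, -1.26 to 1.51 for cytotoxic, 0.291 to 2.37 for unnamed 3, 0.861 to 3.38 for Th17 and -2.46 to -1.11 for regulatory cells. Unnamed 1 lost its call with each clone counted once (-3.32), with at least 3 non-cycling cells (-6.32), by beta chain (-5.37) and without any 1 of WT mice 7 and 9 to 12. Regulatory cells gained one against all non-cycling cells (-2.25). Cytotoxic cells turned to -1.65 against all non-cycling cells and to -2.45 with at least 3, and with each clone counted once unnamed 3 turned to -0.871 and Th17 to -1.13. The percent of cycling cells in clones moved to -3.56 by beta chain (-9.04 to -6.43 without each mouse, and 7.01 to 8.15 for cycling minus other cells). Mean clone size moved to 8.43 (-8.47 to 0.935, and 4.24 to 5.93). The G2/M percent difference was -1.01 to 0.764.

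Of genes that were not called, the log2 fold change of KO against WT turned for Gzmb (-0.00282 with doublet scores below the median, -0.0754 to 0.250 without each mouse), Il17a (-0.149 with DESeq2, -0.389 without cytotoxic clones, -0.397 to 0.441), Mki67 (-0.0292 thinned, -0.0706 with equal cell numbers, -0.0319 without KO mice 1 and 2, -0.0023 to 0.105), Il22 (-1.29 to 0.250) and Tbx21 (0.183 without cytotoxic clones). For the clone classes it turned for Il7r (0.0316 by beta chain, 0.0404 with at least 3 non-cycling cells, -0.168 to 0.0690), Mki67 (-0.00738 with at most 5 cells a clone, -0.140 to 0.235), Top2a (-0.00104 with at most 5 cells a clone, -0.0833 to 0.199) and Birc5 (-0.0598 to 0.234). Among shares of cells, Tbx21 (-2.98) and Mki67 (-3.15) turned with no thinning, Top2a with 1000 UMIs (-0.410) and Birc5 with both (-2.61 and -2.53). The causes were not tested. Depth limited the clone classes, with 5 to 51 cells a class and mouse.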
